A study of Rattus norvegicus with 6 samples.

Results

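The genes described here encode F-box and Kelch proteins, the exchangeable adaptors that bring substrates to cullin-RING ubiquitin ligases. They were chosen by annotated gene symbol: all symbols that begin with Fbxo, Fbxl, Fbxw, Klhl or Kbtbd followed by a digit, without Fbxo5. That gave 90 of the 14217 genes with 1 symbol in the table, 52 F-box and 38 Kelch genes, read by 128 of 31042 probe sets. No value of a single gene decided its membership, but the family was picked from results of the same comparison of tamoxifen with vehicle arrays that is given below. Its counts are therefore a description with no test of the family, and a p-value printed for a gene belongs to that probe set in the fit across the whole table.

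The arrays measured RNA of primary rat Schwann cells from sciatic nerve, the glia that ensheathe and myelinate peripheral axons. Every culture carried RafER, a Raf kinase joined to the ligand-binding domain of the estrogen receptor, which tamoxifen switches on. After a day in minimal medium the cells received tamoxifen for 24 h (3 arrays) or its ethanol vehicle for 24 h (3 arrays), in experiments numbered 1 to 3. Some labels speak of treated rats. The series' design text has the cells treated in culture and is followed here. All cells carried the fusion, so effects of Raf and of tamoxifen itself cannot be told apart. Age and strain of the rats were not stated. The labels do not say whether the arrays of one experiment came from the same animals, and p-values measure the spread between these arrays.

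In an SCF ligase, the scaffold CUL1 carries the RING protein RBX1 at one end and SKP1 at the other, and SKP1 holds the F-box protein whose remaining domain binds the substrate. Fbxw proteins bind through WD40 repeats, Fbxl proteins through leucine-rich repeats, and Fbxo proteins through other domains. In a CUL3 ligase a BTB-Kelch protein does both jobs: its BTB domain holds CUL3 and its Kelch propeller holds the substrate. NEDD8 attached to the cullin activates the ligase, the COP9 signalosome removes it, and CAND proteins help one adaptor to be exchanged for another.

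Every value is a log2 expression level of 1 probe set. A difference is tamoxifen minus vehicle on that scale, with the standard error of the fit. A probe set passed when its adjusted p in limma (Benjamini-Hochberg over 31042 probe sets) was below 0.05. Each gene is represented by its brightest probe set, the one with the highest mean over all 6 arrays, unless another is named. The arrays' medians lay between 6.30 and 6.37. Vehicle array 1 had weaker 5′ signal: its 3′ probe sets exceeded the 5′ ones of 3 control transcripts by 0.84 on average, whereas this excess was 0.16 to 0.22 on the tamoxifen arrays and 0.16 and 0.27 on the other vehicle arrays. At 10 member probe sets this array lay at least 0.5 log2 units outside the range of the other vehicle arrays, below it at 6 and above it at 4. That count was made for this array only and not over all probe sets, so the count does not set the array apart. Array weights in limma, estimated over all tested probe sets, were lowest for vehicle array 1 (0.4785, against 0.7495 to 1.773 for the others). Of 9 Schwann markers 7 were measured, with a mean log2 value per array of 9.92 to 10.13 after tamoxifen and 10.98 to 11.24 after vehicle, and 4 of them fell. The corresponding ranges were 4.74 to 4.84 and 4.71 to 4.74 for 6 macrophage markers, and 4.30 to 4.45 and 4.28 to 4.38 for 4 endothelial markers, near the bottom of the table. For 6 fibroblast markers they were 6.28 to 6.39 and 6.11 to 6.17, with 2 rises (Pdgfra and Fbln1) and 1 fall (Col1a1). Col1a1 was bright in both groups, with means of 11.92 after tamoxifen and 13.15 after vehicle. The corresponding means were 7.96 and 6.35 for Fbln1, and 5.43 and 4.90 for Pdgfra. Lum and Dcn stayed below 5 on every array. For 5 neuronal markers the ranges were 6.92 to 7.62 and 7.63 to 8.33, and Tubb3 fell. Nefl and Nefm had means of 10.82 and 10.34 after tamoxifen and 11.10 and 11.11 after vehicle, neither past. Nefh and Snap25 stayed below 5 on every array. How far cell makeup took part in the results below was not tested. In bulk RNA, fewer cells of a type and less RNA per cell cannot be told apart.

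After 24 h of tamoxifen, 19 of 52 F-box genes fell (36.5%) and none rose, whereas 7 of 38 Kelch genes fell (18.4%) and 4 rose (10.5%). Over all 14217 genes, 17.3% fell and 13.9% rose. In the limma fit 4 F-box genes were higher at an unadjusted p under 0.05 (Fbxl14, Fbxl18, Fbxl22 and Fbxo22). Fbxo22 passed with quantile normalization or in the fit across gene means of probe sets. It has no other probe set, so the gene-mean fit changed only the set of features fitted and corrected over. The median difference was -0.25 for F-box genes and -0.06 for Kelch genes, against 0.01 for all genes. Among genes with a mean log2 value of at least 7, where calls are more frequent, 15 of 31 F-box genes fell (48.4%) and 6 of 19 Kelch genes fell (31.6%), against 25.7% of 8023 genes. The Fbxw subfamily had 5 falls among 8 genes, Fbxo 11 among 30 and Fbxl 3 among 14. The groups did not overlap for 48 of the 90 genes (53.3%), and for 49.1% of all genes. Since the family was proposed with this comparison known, nothing further is read from these shares. By probe set, 33 of 128 were lower and 6 higher, against 12.9% and 11.5% of all probe sets.

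**Figure D1:**
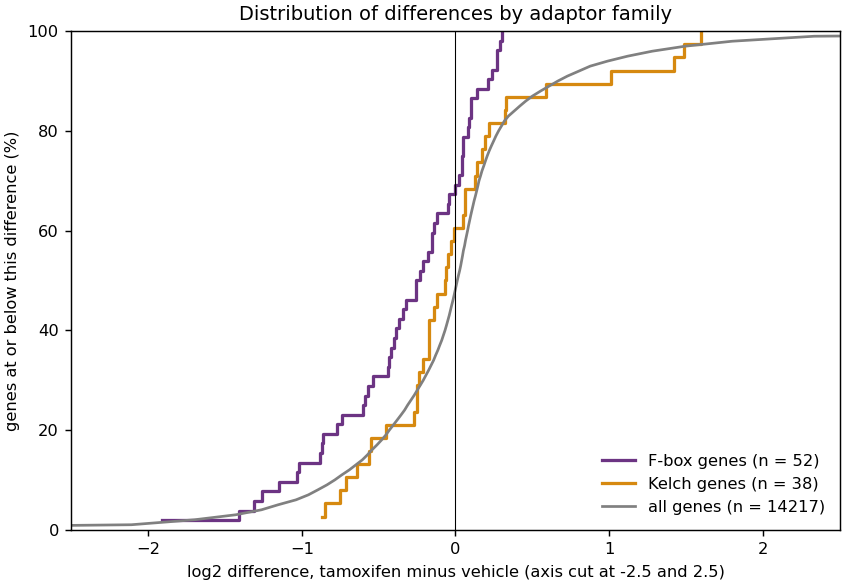
Cumulative share of genes (vertical axis, percent) at or below a log2 difference, tamoxifen minus vehicle (horizontal axis), for 52 F-box genes, 38 Kelch genes and all 14217 genes, each by its brightest probe set. The F-box curve ends at 0.30 on the right, while the Kelch curve reaches 1.60.

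The 4 genes that rose were all Kelch genes. Klhl41 encodes a muscle protein that stabilises thin filament components. Its values were 7.17, 7.59 and 7.04 on tamoxifen arrays 1 to 3, against 5.64, 5.70 and 5.64 on vehicle arrays 1 to 3, a difference of 1.60 ± 0.15 (adjusted p = 0.000959 in limma). Every tamoxifen array lay above every vehicle array by more than 1 log2 unit. Among 7 other skeletal muscle markers, Myh1, a fast myosin heavy chain, read 12.13, 11.53 and 13.20 after tamoxifen and 9.59, 9.58 and 9.22 after vehicle. Acta1, skeletal actin, read 5.75, 5.15 and 4.84 after tamoxifen and 8.12, 7.95 and 7.0 after vehicle. Those were the only 2 of the 7 that passed, in opposite directions. Ckm, Myh4 and Mb stayed below 5 on every array, and the part of muscle transcripts in the Klhl41 result was not tested.

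Klhl36 read 6.85, 6.83 and 6.94 after tamoxifen, against 5.26, 5.32 and 5.56 after vehicle (1.49 ± 0.10, adjusted p = 0.000435 in limma). Klhl2, also called Mayven, binds actin and directs WNK kinases to CUL3. It read 11.09, 10.93 and 10.69 after tamoxifen, against 9.85, 9.62 and 8.99 after vehicle (1.42 ± 0.23). Its second probe set gave 1.56 ± 0.17, so both reported the same rise. Klhl30 read 9.19, 9.01 and 8.64 after tamoxifen, against 8.16, 8.09 and 7.57 after vehicle (1.01 ± 0.20). Its highest vehicle value was 0.48 below its lowest tamoxifen value, and leaving out tamoxifen array 2 ended the call (adjusted p = 0.054 in limma). Klhl26 was the next Kelch gene by size, with a difference of 0.59 ± 0.20 that did not pass (adjusted p = 0.0753 in limma). The Klhl26 arrays differed by 0.20 in experiment 1, 0.33 in experiment 2 and 1.23 in experiment 3.

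The promoters of Klhl2 and Klhl36 are shown because both genes rose and both hold the core site of ETS factors. ERK signalling is known to act through that family. Among members with a promoter found, the core was also in 6 of 23 that fell and 11 of 54 that did not pass. Its part in the rises was not tested. The sequences are from RefSeq (GRCr8), 5′ to 3′ on the gene's strand, 250 bases before the annotated start and 20 from it on. Capitals mark matches to the ETS core CCGGAAG or the AP-1 pattern TGANTCA on either strand. N stands for any base, so this pattern is looser than the AP-1 consensus, which has C or G there.
Klhl2: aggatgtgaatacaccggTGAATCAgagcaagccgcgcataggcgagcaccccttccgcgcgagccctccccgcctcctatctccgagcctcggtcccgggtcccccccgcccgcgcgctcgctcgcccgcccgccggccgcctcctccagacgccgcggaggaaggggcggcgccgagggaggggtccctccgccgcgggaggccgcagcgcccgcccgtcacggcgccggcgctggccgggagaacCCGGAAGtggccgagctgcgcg
Klhl36: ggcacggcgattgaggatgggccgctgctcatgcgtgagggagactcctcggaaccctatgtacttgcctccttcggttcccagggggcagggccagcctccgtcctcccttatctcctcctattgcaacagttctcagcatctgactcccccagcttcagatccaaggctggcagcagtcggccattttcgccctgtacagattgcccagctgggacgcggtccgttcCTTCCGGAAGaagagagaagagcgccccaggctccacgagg
The Klhl2 window lies at chr16:29626987-29627256 (plus strand), with its AP-1 match 232 bases before the start and its ETS match overlapping the start. The Klhl36 window lies at chr19:64829968-64830237 (plus strand), where 2 ETS matches on opposite strands overlap 21 and 18 bases before the start.

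**Figure D2:**
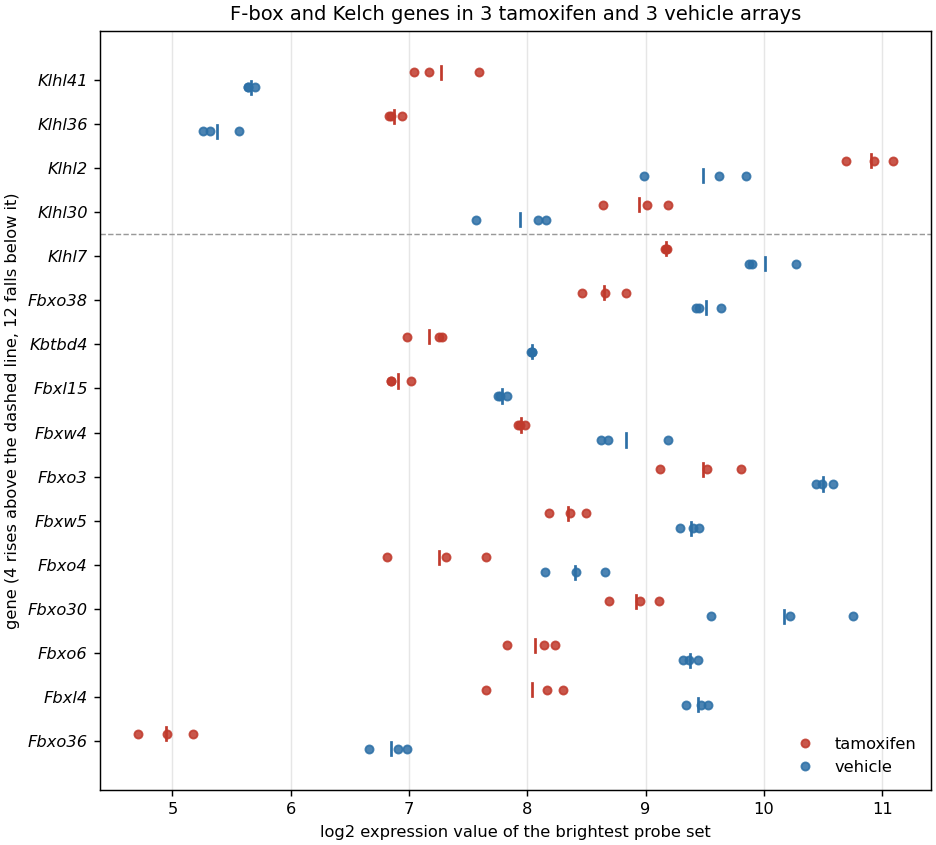
Log2 expression value (horizontal axis) on each of 3 tamoxifen and 3 vehicle arrays for the 4 member genes that rose and the 12 with the largest falls, by brightest probe set. Points are arrays and vertical strokes are group means. In all 16 genes the tamoxifen and vehicle points do not overlap, which the rule that chose them requires.

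Fbxo36 had the largest fall of the family. It read 4.71, 5.17 and 4.95 after tamoxifen, against 6.98, 6.91 and 6.66 after vehicle (-1.91 ± 0.15, adjusted p = 0.000585 in limma). Its tamoxifen arrays lay at least 1.49 below its vehicle arrays. The tamoxifen mean was 4.94, and without detection calls such low values can be background, so the size of the fall is uncertain.

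Fbxo6 recognises N-glycans on misfolded glycoproteins that leave the endoplasmic reticulum. It read 8.23, 8.14 and 7.83 after tamoxifen, against 9.32, 9.44 and 9.37 after vehicle (-1.31 ± 0.12, adjusted p = 0.000992 in limma). In the RefSeq gene order Fbxo6, Fbxo44 and Fbxo2 are direct neighbours. Fbxo44 was 6.52, 6.44 and 6.46 after tamoxifen and 6.66, 6.60 and 6.59 after vehicle, a difference of -0.15 ± 0.08 that did not pass. Fbxo2, a glycan-binding adaptor best known from brain, read 4.80, 4.97 and 5.11 after tamoxifen and 5.07, 4.91 and 4.89 after vehicle (0.00 ± 0.11). Of these 3 neighbours 1 passed, and the difference between them was not tested.

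The Fbxo6 promoter is shown for its match to the AP-1 pattern, TGATTCA, 87 bases before the start. This gene fell, while Klhl2, whose match reads TGAATCA, rose. Neither match has the C or G of the consensus in the middle. The Fbxo6 window lies at chr5:163863424-163863693 on the minus strand. Kbtbd4, a Kelch gene that fell and is described further on, is set beside it because it holds 2 ETS matches, 55 and 27 bases before its start, at chr3:97339346-97339615 on the plus strand. Capitals are as above.
Fbxo6: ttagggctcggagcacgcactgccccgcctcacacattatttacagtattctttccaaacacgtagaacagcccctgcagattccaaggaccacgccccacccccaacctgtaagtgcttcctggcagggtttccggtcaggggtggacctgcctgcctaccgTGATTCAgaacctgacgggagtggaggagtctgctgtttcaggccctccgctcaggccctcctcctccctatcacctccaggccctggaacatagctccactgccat
Kbtbd4: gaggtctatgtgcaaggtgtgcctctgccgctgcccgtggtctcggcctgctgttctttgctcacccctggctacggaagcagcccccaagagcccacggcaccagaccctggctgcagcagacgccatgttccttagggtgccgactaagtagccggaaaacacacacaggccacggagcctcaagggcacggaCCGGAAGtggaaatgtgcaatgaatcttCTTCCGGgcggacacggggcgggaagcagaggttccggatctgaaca
Among the first listed promoters of 27457 genes (300 bases, 50 of them after the start), 7.33% held TGANTCA and 9.22% held CCGGAAG. Promoters were found for 81 of the 90 members. The AP-1 pattern was in 1 of the 4 genes that rose, 3 of 23 that fell (Fbxo6, Fbxo8 and Klhl40) and 1 of 54 others. In Klhl2, Fbxo6 and Fbxo8 the middle base was A or T, and in both matches of Klhl40 it was C or G. The ETS core was in 2 of 4, 6 of 23 and 11 of 54. The E-box CACGTG (6.65% of all promoters) was in Klhl30 among the rises, in Klhl22 among the falls and in 3 others, and the cyclic AMP site TGACGTCA (1.91%) in Fbxw9. The forkhead site GTAAACA (3.76%) and the CArG box (1.64%) each matched 1 member, Klhl12 and Fbxl22, neither past the threshold. Matching letters are a description of these windows, with no reading about the factors.

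Fbxl4, a mitochondrial F-box protein that restrains mitophagy, read 8.17, 8.30 and 7.65 after tamoxifen, against 9.53, 9.47 and 9.34 after vehicle (-1.41 ± 0.17). Its second probe set gave -1.28 ± 0.17. Fbxo7, which acts in mitophagy and binds a proteasome regulator, read 8.71, 8.79 and 8.70 after tamoxifen, against 9.34, 9.19 and 9.38 after vehicle (-0.57 ± 0.09). The smallest gap between the groups was larger than the range within either of them. Fbxo30 encodes an SCF subunit known from muscle wasting in mice. It read 9.11, 8.95 and 8.69 after tamoxifen, against 9.55, 10.22 and 10.75 after vehicle (-1.26 ± 0.29), and its dimmer probe set gave -1.59 ± 0.28. The size of its difference varied with the experiment, with -0.44, -1.27 and -2.06 in experiments 1 to 3, and leaving out tamoxifen array 2 (adjusted p = 0.0711), tamoxifen array 3 (0.0795) or vehicle array 2 (0.0648) ended the call of the brighter probe set in limma. Fbxo32, the atrophy adaptor atrogin-1, read 4.96, 5.33 and 5.12 after tamoxifen and 5.13, 5.22 and 5.83 after vehicle, a difference of -0.26 ± 0.20 that did not pass.

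Other Fbxo genes that fell by at least 0.77 were Fbxo4, Fbxo3, Fbxo38 and Fbxo34. Fbxo4, an adaptor for the telomere protein TRF1, read 7.31, 7.65 and 6.81 after tamoxifen, against 8.66, 8.41 and 8.15 after vehicle (-1.15 ± 0.23). Fbxo3 read 9.81, 9.52 and 9.12 after tamoxifen, against 10.44, 10.58 and 10.49 after vehicle (-1.02 ± 0.17). Fbxo38, an adaptor for the immune receptor PD-1 in T cells, read 8.83, 8.66 and 8.46 after tamoxifen, against 9.64, 9.43 and 9.45 after vehicle (-0.86 ± 0.12). For all 3 of these genes the highest tamoxifen array lay at least 0.50 below the lowest vehicle array. The remaining Fbxo falls were smaller: -0.77 for Fbxo34, -0.54 for Fbxo8, -0.44 for Fbxo11, which targets the repressor BCL6, and -0.43 for Fbxo10, which targets BCL2. The call of Fbxo34 was lost without tamoxifen array 2 or 3 or vehicle array 2, with adjusted p up to 0.0908 in limma. That of Fbxo11 was lost without any array except tamoxifen array 1 (up to 0.0937), and that of Fbxo8 without any 1 of the 6 (up to 0.133).

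Of the WD40 adaptors, Fbxw5, a centrosome and TSC2 regulator, read 8.36, 8.50 and 8.18 after tamoxifen, against 9.45, 9.29 and 9.40 after vehicle (-1.03 ± 0.11, adjusted p = 0.00149 in limma). Fbxw4, known from limb malformation in mice, read 7.98, 7.94 and 7.92 after tamoxifen, against 9.19, 8.62 and 8.68 after vehicle (-0.88 ± 0.16). Its tamoxifen arrays were within 0.06 of each other, and vehicle array 1 stood above the other vehicle arrays. Fbxw17 and Fbxw9 fell by 0.60 and 0.59. The call of Fbxw17 was lost without tamoxifen array 3 or vehicle array 3 (up to 0.0596). Fbxw8, the partner of CUL7, read 9.78, 9.71 and 9.88 after tamoxifen, against 10.29, 10.12 and 10.18 after vehicle (-0.40 ± 0.09). Its dimmer probe set gave 0.11 ± 0.36, with vehicle array 1 at 6.76 and the other vehicle arrays at 8.20 and 7.94. Leaving out tamoxifen array 1 (adjusted p = 0.0589) or 2 (0.0743) or vehicle array 3 (0.0515) ended the Fbxw8 call in limma, as did averaging its probe sets (-0.15, adjusted p = 0.57).

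Fbxw7, Fbxw11 and Fbxw2 did not pass. Fbxw7, which targets Myc, cyclin E, Notch and Jun, read 6.39, 6.02 and 6.42 after tamoxifen and 5.72, 6.65 and 6.15 after vehicle, a difference of 0.10 ± 0.24. The vehicle arrays alone spanned 0.93, and the groups overlapped. Fbxw11, which marks beta-catenin and the NF-kappaB inhibitor for destruction, read 10.84, 10.51 and 10.51 after tamoxifen and 10.78, 10.53 and 10.41 after vehicle (0.05 ± 0.14). Its close relative Btrc, filed under another symbol, read 7.06, 6.82 and 6.87 after tamoxifen, against 8.57, 8.0 and 8.13 after vehicle (-1.32 ± 0.16, adjusted p = 0.00249 in limma), and its other probe sets gave -1.02 and -0.63. Whether Btrc and Fbxw11 differ in response was not tested. Fbxw2 was measured by 4 probe sets, with differences of -0.21 to -0.13 and none past.

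Among the leucine-rich repeat adaptors, Fbxl15, which targets Smurf1, read 6.85, 7.02 and 6.85 after tamoxifen, against 7.83, 7.75 and 7.77 after vehicle (-0.87 ± 0.09, adjusted p = 0.00125 in limma). Fbxl8 fell by 0.74 ± 0.15, while its dimmer probe set gave -0.37 ± 0.13 and did not pass. Fbxl5 senses iron and targets the regulator IRP2. It read 9.56, 9.74 and 9.38 after tamoxifen and 10.05, 9.92 and 9.83 after vehicle (-0.37 ± 0.12, adjusted p = 0.0651 in limma), so its groups did not overlap but it did not pass. It passed with median centring (-0.41, adjusted p = 0.0487) and in the fit across gene means of probe sets (0.0479) in limma. Fbxl5 has no other probe set, so its difference stayed at -0.37 in the latter fit. What changed there was the set of features fitted and corrected over. Fbxl14, which targets Snail, was 9.12, 9.15 and 9.22 after tamoxifen and 9.09, 8.87 and 8.73 after vehicle (0.27 ± 0.11, not past).

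The 7 Kelch genes that fell were led by Kbtbd4, whose human counterpart is mutated in medulloblastoma. It read 7.28, 7.25 and 6.98 after tamoxifen, against 8.03, 8.04 and 8.04 after vehicle (-0.87 ± 0.11, adjusted p = 0.00235 in limma). Klhl7, a CUL3 adaptor mutated in retinitis pigmentosa, read 9.18, 9.16 and 9.17 after tamoxifen, against 9.87, 9.90 and 10.27 after vehicle (-0.85 ± 0.12). Its tamoxifen arrays were nearly identical and all lay below the vehicle arrays. Klhl5 fell by 0.75 on both of its probe sets, with standard errors of 0.13 and 0.12. Klhl40, a muscle relative of Klhl41, read 7.23, 7.0 and 6.90 after tamoxifen, against 7.77, 7.55 and 7.49 after vehicle (-0.56 ± 0.13), so these muscle relatives moved in opposite directions. Leaving out tamoxifen array 2 (adjusted p = 0.0695) or 3 (0.0634) ended the Klhl40 call in limma. Klhl25, which targets the translation inhibitor 4E-BP1, fell by 0.55 ± 0.16 and Klhl8 fell by 0.45 ± 0.12, with -0.02 on its dimmer probe set and an average that did not pass. Klhl8 lost its call with the experiment as a replicate block (adjusted p = 0.066) and without any 1 array, and Klhl25 without any array except vehicle array 3 (up to 0.135).

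Klhl9, Klhl13, Klhl21 and Klhl22 act in mitosis, the first 3 on Aurora B and the last on PLK1. Klhl22 read 8.97, 8.87 and 8.91 after tamoxifen, against 9.82, 9.44 and 9.41 after vehicle (-0.64 ± 0.13), which did not pass once tamoxifen array 2 was left out (adjusted p = 0.0511 in limma). Klhl21 read 7.28, 7.08 and 6.99 after tamoxifen and 8.44, 7.81 and 7.23 after vehicle (-0.71 ± 0.29, adjusted p = 0.125). Within experiments 1 to 3 it differed by -1.16, -0.73 and -0.24. It passed with the experiment as a replicate block (adjusted p = 0.0448) and without vehicle array 3 (0.0233). Klhl9 (-0.25 ± 0.13) and Klhl13 (0.19 ± 0.21) did not pass. They are close paralogs, so their probe sets may read each other's transcript. On Klhl13 the experiments disagreed, with -0.34, 0.05 and 0.87.

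Of the remaining adaptors fixed by role, none passed by its brightest probe set: Klhl3, which targets WNK kinases (0.13 ± 0.08), Klhl12, which acts on COPII coats (-0.17 ± 0.15), Klhl20, which targets DAPK1 and PML (-0.24 ± 0.10), Kbtbd2, which targets a PI3-kinase subunit (0.06 ± 0.08), Fbxo9 (-0.42 ± 0.14), Fbxo31, an adaptor for cyclin D1 (-0.23 ± 0.12), and Fbxo45 (0.10 ± 0.18). Fbxo9 passed without vehicle array 3 (adjusted p = 0.0172 in limma). Fbxl2 and Kbtbd8 were not analysed here. At the edge of the threshold, Fbxo8 (adjusted p = 0.0483) and Klhl25 (0.049) lay just inside, and Fbxo22 (0.0584) and Klhl11 (0.061) just outside, both with higher values after tamoxifen (0.30 and 0.33). Of all 90 genes, 13 had a mean below 5. Among them were Fbxo10, counted as a fall (means of 4.72 after tamoxifen and 5.14 after vehicle), and Fbxo2 (4.96 in each group). The dimmest were Klhl4, Klhl14 and Klhl6, which read 3.20 to 4.12 after tamoxifen and 3.39 to 3.91 after vehicle. The table holds no detection calls, so such values can be background. Of the 30 genes past the threshold, 19 kept their call whichever array was left out.

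Probe sets of one gene did not always move together. Of 27 genes with more than 1 probe set, 3 fell and 1 rose on all of them, 15 had none past, 8 were mixed, and 0 had calls in opposite directions. Fbxl20, which controls synaptic vesicle release in mice, had 5. Its brightest read 9.17, 9.10 and 8.52 after tamoxifen and 9.44, 9.31 and 9.20 after vehicle (-0.39 ± 0.18, not past). Others fell by 0.88 ± 0.17 and 1.10 ± 0.20, and the last 2 gave -0.31 and 0.00, neither past. Fbxl20 is therefore not counted among the 19 falls, though it passed when its probe sets were averaged (-0.54, adjusted p = 0.024 in limma). Klhl22 fell on its 2 brightest probe sets and gave 0.21 and 0.04 on the others, with an average that did not pass (-0.19, adjusted p = 0.121 in limma). Fbxo3 fell on its brightest and gave -0.26 and -0.19, not past. For Fbxo21 the brighter probe set gave -0.14 ± 0.19 and the dimmer one fell by 0.89 ± 0.25, where vehicle array 1 stood 0.78 above the other vehicle arrays. Their average passed (-0.52, adjusted p = 0.00553 in limma). For Fbxo45, an atypical adaptor needed for axon development in mice, the dimmer probe set rose by 0.46 ± 0.11. Klhl21, Fbxl7 and Fbxl17l1 had probe sets 0.43 to 0.70 apart, none past.

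**Figure D3:**
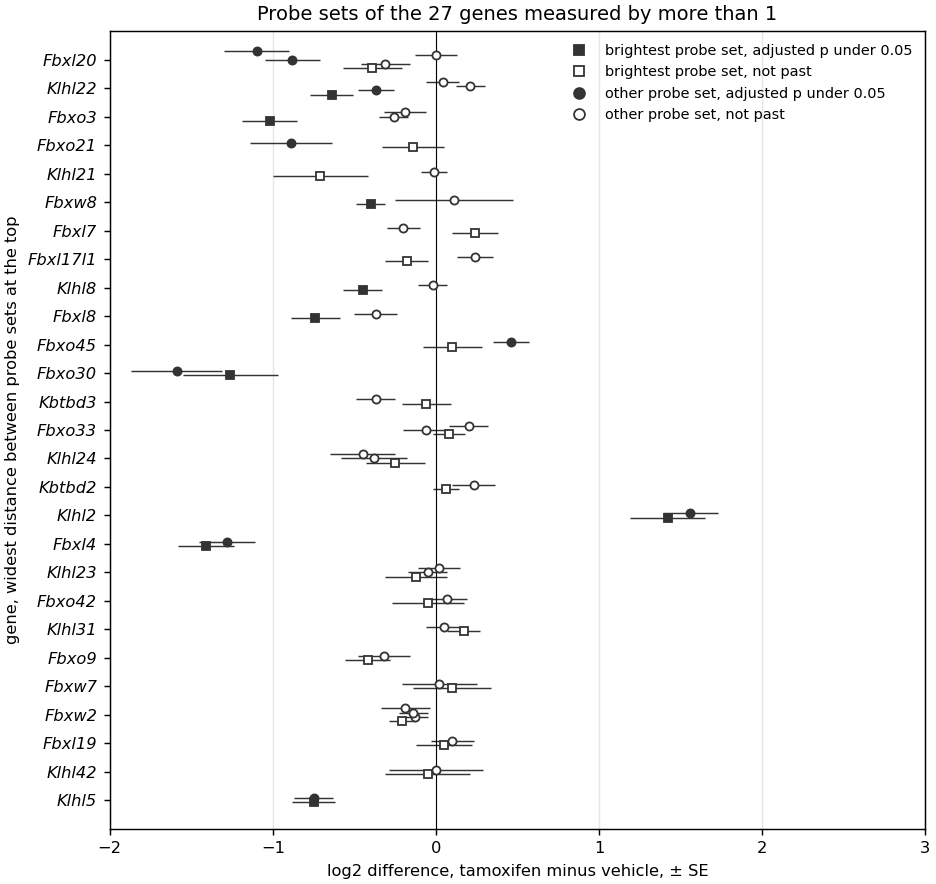
Log2 difference, tamoxifen minus vehicle, with its standard error (horizontal axis), for each probe set of the 27 member genes with more than 1 (vertical axis). Squares are the brightest probe set of a gene and circles the others, filled where the adjusted p is below 0.05. Fbxl20 shows the widest distance, 1.10, while Klhl2, Fbxl4, Fbxo30 and Klhl5 have every probe set filled and on one side of 0.

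The partners of these adaptors were taken from lists chosen with earlier results known. Of 21 measured genes of the ligase core, 4 rose (19%) and 1 fell (4.76%), with a median difference of 0.09, against 13.9% higher, 17.3% lower and a median of 0.01 over all genes. The scaffolds and linker did not pass: Skp1 differed by 0.00 ± 0.11, Cul3 by 0.04 ± 0.09 and Cul1 by -0.33 ± 0.10 (adjusted p = 0.0632). Cks1b, the cofactor that SKP2 needs to bind p27, read 9.69, 10.72 and 10.65 after tamoxifen, against 8.16, 8.37 and 8.61 after vehicle (1.97 ± 0.29). It is also a cell cycle gene. Genes of the NEDD8 pathway made up the other rises: Dcun1d5 rose by 0.71 ± 0.11, Ube2f by 0.45 ± 0.11 and Ube2m by 0.42 ± 0.08. Listed genes of that pathway that did not pass were Nedd8 (0.15), Uba3 (0.11), Nae1 (0.38), Dcun1d1 (0.16), Dcun1d2 (0.09) and Dcun1d4 (0.01). The Ube2f call was lost without any array except tamoxifen array 1, while its dimmer probe set also rose, by 0.70 (adjusted p = 0.00576). Cand2 fell by 0.62 ± 0.09, and Cand1 differed by -0.03 ± 0.09. Of 9 COP9 signalosome genes 1 passed, Cops7a (0.44 ± 0.11), with 0.02 and 0.61 on its other probe sets, neither past. Its call was lost without tamoxifen array 2 or 3 or vehicle array 1 or 2. Cops7b did not pass by its brightest probe set (0.20), while its dimmer one was higher by 0.36 (adjusted p = 0.0452 in limma).

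Of 8 measured F-box or Kelch genes under other symbols, 3 rose and 3 fell (37.5% each way, against 13.9% and 17.3% of all genes). Enc1, a neural Kelch protein that binds actin, rose by 1.21 ± 0.23, but its other 3 probe sets gave 0.31, 0.24 and -0.02, none past. Kdm2b, a histone demethylase with an F-box, rose by 0.88 ± 0.09 and Ivns1abp by 0.31 ± 0.08. Ivns1abp lost its call with the replicate block (adjusted p = 0.0676 in limma) and without any array except vehicle array 2. Keap1, the Kelch adaptor that holds the stress factor NRF2 in check, read 8.06, 8.24 and 8.14 after tamoxifen, against 8.98, 8.78 and 8.71 after vehicle (-0.68 ± 0.10), and its dimmer probe set (-0.55) did not pass. Lztr1, which directs RAS proteins to CUL3, fell by 0.62 ± 0.08, with 0.11 on its dimmer probe set. Of 16 other BTB adaptors of CUL3, 7 fell (43.8%) and 3 rose (18.8%), with a median of -0.48, against 17.3% lower and 13.9% higher over all genes. Abtb1 read 7.75, 7.40 and 6.27 after tamoxifen, against 9.68, 9.23 and 8.96 after vehicle (-2.15 ± 0.39). Rhobtb1 fell by 1.26 ± 0.15, Btbd6 by 1.08 ± 0.18 and Kctd2 by 0.96 ± 0.21, the last a call lost without vehicle array 2. The rises were Kctd13 (0.80), Kctd5 (0.52) and Rhobtb2 (0.30). The calls of Kctd13 and Kctd5 were lost without tamoxifen array 2, and that of Rhobtb2 without any 1 array and with the replicate block (adjusted p = 0.0681 in limma).

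Of 24 measured transcripts of proteins known as substrates of these ligases, 6 rose (25%) and 7 fell (29.2%), with a median of 0.01, against 13.9% higher and 17.3% lower over all genes. These are transcript levels and say nothing of the proteins' turnover. Myc, targeted by FBXW7, rose by 3.31 ± 0.18, and Ccnd1 and Jun, also ligase substrates, differed by 4.40 and -1.40. The call of Jun was lost without tamoxifen array 2 or any 1 vehicle array. Notch1 fell by 1.33 ± 0.22, and Nfkbia, the substrate of BTRC and FBXW11, fell by 1.13 ± 0.14. Nfe2l2, which encodes NRF2, rose by 0.98 ± 0.19.

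**Figure D4:**
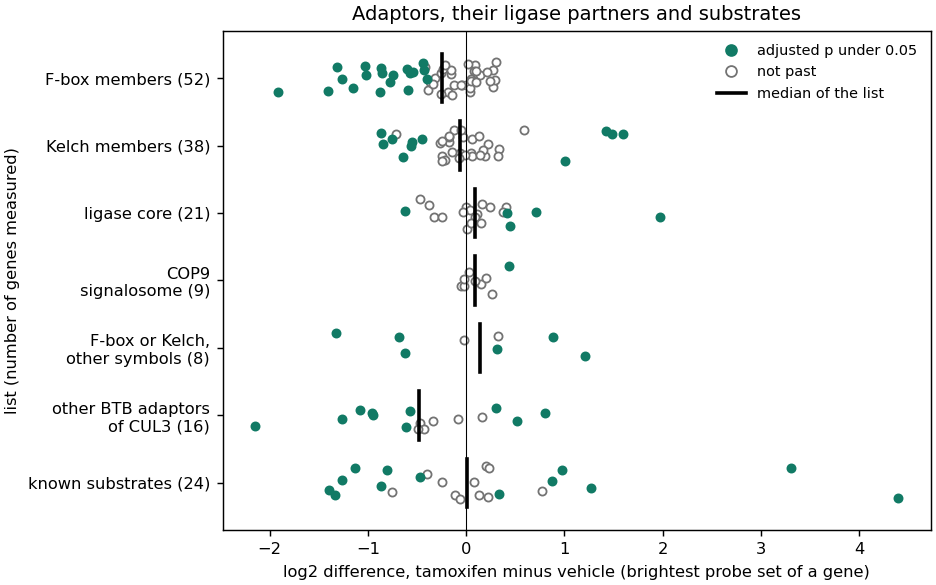
Log2 difference, tamoxifen minus vehicle (horizontal axis), of each measured gene of the F-box and Kelch members and of the 5 companion lists (vertical axis, with the number of genes). Each point is a gene by its brightest probe set, green where the adjusted p is below 0.05, and bars are list medians. Green points of the F-box members all lie left of 0, and the ligase core and COP9 medians lie at 0.09.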

How the data were processed

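RNA of 6 cultures was hybridised to Affymetrix rat arrays. The authors deposited 1 log2 expression value for each probe set and array, made with RMA (version not given), per the submitters' processing notes. RMA compresses low values. No depth applies, and the number of arrays limits the precision. Of 31099 probe sets, 57 manufacturer controls were left out. Symbols came from GEO's platform annotation (20826 probe sets with 1 symbol, 436 with several, 9780 with none), and all 90 members had the same symbol in RefSeq (GRCr8). Groups and experiment numbers came from the sample titles.

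The groups were compared by linear models in limma 3.58.1 (lmFit, eBayes) under R 4.3.3, two-sided, without covariates. With 3 arrays a group, the smallest p of an exact permutation test is 0.1, and it was not run. The members, lists and alternatives were chosen with earlier results of these data known. Named genes are the 12 largest rises and falls past the threshold without overlap, the 8 genes with the most distant probe sets, 31 members fixed by role (28 measured), the 3 members with the highest and the 3 with the lowest readings, those nearest the threshold, and up to 4 per companion list. Others named fall outside this rule and were chosen after their values were seen.

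Arrays with the same experiment number deviated together after subtraction of group means (correlations of 0.262, 0.198 and 0.279). Arrays of different groups and numbers gave -0.27 to -0.0357. The numbers were therefore taken to pair the samples. The main fit did not use this pairing, and the replicate block was an alternative. On simulated data with 200 of 31042 probe sets changed, changes of 0.5, 1 and 2 log2 units were recovered in 9.2%, 82.8% and 97.4% of cases. In the real data 11.5% of probe sets passed as higher and 12.9% as lower. With so many changes the adjusted threshold is less strict, so the simulated rates do not carry over to these data. Other alternatives were leaving out each array, median centring, quantile normalization, a minimum mean of 5, trend and robust eBayes, array weights, a test against a fold of 1.5, probe set averages and leaving out probe sets that may match several transcripts.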

Additional observations from a re-analysis of the deposited data

How the results depend on the processing

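With the experiment as a replicate block, 19 F-box genes fell and 0 rose, 7 Kelch genes fell and 4 rose, 33 probe sets were lower and 6 higher, and 22 companion genes were lower and 15 higher. Apart from Klhl8 and Klhl21, no member gene's call changed there. Leaving out 1 array gave 14 to 17 F-box falls, 0 to 1 F-box rises, 3 to 7 Kelch falls and 3 to 5 Kelch rises. It gave 22 to 30 lower and 4 to 8 higher probe sets, and 14 to 18 lower and 10 to 16 higher companion genes. Kelch falls numbered 3 without tamoxifen array 2 and 4 without tamoxifen array 3, and companion rises numbered 10 without tamoxifen array 2. The single F-box rise was Fbxl14 without vehicle array 1 and Fbxl18 without vehicle array 2. It was Fbxo22 with quantile normalization and in the fit across gene means of probe sets, 1 gene in each case. Tested against a fold of 1.5, 3 F-box genes fell, 2 Kelch genes rose and 0 Kelch genes fell (limma's treat, with 2 Kelch falls at an unadjusted p under 0.05). In that test 3 probe sets were lower and 3 higher, and 2 companion genes were lower and 4 higher, because it asks for a larger change. The other settings kept each of these numbers within 1.5 times. Of 983 alternative values of 66 named genes, 893 stayed on their side of the threshold, 78 lost the call, 12 gained it and 0 called values changed sign. The median of all genes was 0.01 in the main fit and lay between -0.03 and 0.02 in every setting.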
